A study of Mus musculus with 12 samples.

Results

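Growth arrest-specific 6 (Gas6) and protein S (Pros1) are the 2 secreted ligands of the TAM receptors, the receptor tyrosine kinases Tyro3, Axl and Mertk, and these 5 genes were examined here in mouse adipose tissue. They were taken by name, and where a gene had several probe sets the main one was chosen by its mean log2 signal over all 12 arrays, the highest being kept. This gave 5 of 18193 named genes, with 8 of the 45098 probe sets on the array. The family was picked on account of earlier results from the same arrays, so the values below describe it and no test of its members is independent support.

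RNA came from adipose tissue of C57Bl/6 mice and was hybridised to 12 single-colour Affymetrix expression arrays, 1 sample each. Chow mice (n = 4) ate a standard diet with 13% of its calories as fat throughout. The high-fat groups ate the same chow up to 6 weeks of age, then a diet with 46% of its calories as fat for 5 days (n = 4) or 14 days (n = 4). The labels name no sex, fat depot or age at collection, so whether the groups were matched in age is not given here, and they do not say that each array is a separate animal; if they are not, the p-values measure technical spread. Adipocyte transcripts were plentiful in every array: Adipoq, the gene of the adipocyte hormone adiponectin, stood at 14.90 to 15.05 and the mean of 10 adipocyte markers at 13.62 to 14.13 on the log2 scale. Array medians lay between 8.09 and 8.14. Precision depends on the number of arrays and on the spread between them, not on a read depth. Transcripts of neighbouring tissues stood apart in some arrays: the mean of 4 epididymis and testis markers was 11.20 to 11.55 in 5-day arrays 1 to 3 and 11.72 in 14-day array 4, against 7.86 to 8.56 in the other arrays. Spink8, Adam7 and Prm1 carried this: Spink8 stood at 14.28 to 14.96 in those 4 arrays and 6.85 to 8.87 in the others. Gpx5 was at 7.82 to 8.52 there and 7.87 to 8.48 elsewhere, and Lcn8, Lcn9 and Rnase10 were dim in all arrays.

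TAM receptors recognise dying cells indirectly. Gas6 and protein S bind phosphatidylserine on the dead cell's surface through a Gla domain, which works only after vitamin K-dependent carboxylation, and bind the receptor with their other end. Activated receptors drive the engulfment of dead cells and dampen inflammatory signalling in macrophages and dendritic cells; Mertk is a marker of tissue macrophages, Axl is also made by fibroblasts, endothelium and other stromal cells, and Gas6 binds all 3 receptors while protein S binds Tyro3 and Mertk.

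Promoter sequence is shown for Gas6 and Axl, which had lower signal in every high-fat array than in every chow array, and for Mertk, which did not. Each line gives, 5′ to 3′ on the gene's strand, the 250 bases before a transcription start listed by RefSeq for GRCm38.p6, with matches to the GC box (GGGCGG, either strand, overlaps included) in capitals. The Gas6 window is chr8:13494536-13494785 on the minus strand, the Axl window chr7:25788734-25788983 on the minus strand and the Mertk window chr2:128698665-128698914 on the plus strand.
Gas6: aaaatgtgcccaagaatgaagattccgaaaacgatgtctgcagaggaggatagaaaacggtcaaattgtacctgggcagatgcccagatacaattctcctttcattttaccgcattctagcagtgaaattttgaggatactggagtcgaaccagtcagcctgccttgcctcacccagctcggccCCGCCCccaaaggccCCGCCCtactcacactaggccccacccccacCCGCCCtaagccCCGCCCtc
Axl: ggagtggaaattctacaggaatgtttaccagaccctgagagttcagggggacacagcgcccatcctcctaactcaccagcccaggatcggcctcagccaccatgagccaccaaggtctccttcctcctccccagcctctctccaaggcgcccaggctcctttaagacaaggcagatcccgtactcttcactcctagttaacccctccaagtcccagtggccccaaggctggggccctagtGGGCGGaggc
Mertk: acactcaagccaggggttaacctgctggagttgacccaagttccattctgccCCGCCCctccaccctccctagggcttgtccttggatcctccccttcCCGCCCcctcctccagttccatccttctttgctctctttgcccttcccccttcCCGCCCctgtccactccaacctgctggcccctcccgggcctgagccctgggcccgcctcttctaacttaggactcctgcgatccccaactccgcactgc
The Gas6 window held 4 GC boxes, all within the 66 bases before the start, the Axl window held 1 and the Mertk window 3. Those of Pros1 and Tyro3, not shown, held 5 and 3. Such a match was present in 32.7% of the 32851 windows of this length, whose median GC content was 52.4% against 54.8% for Gas6, 60% for Axl and 63.6% for Mertk. Neither the AP-1 motif (TGANTCA) nor the direct repeat bound by liver X receptors (DR4, a pair of AGGTCA separated by 4 bases) occurred in the 5 windows, and both were rare, in 6.75% and 0.0152% of all windows. The listed Axl and Tyro3 starts lie inside the outer bounds of the annotated genes, so other transcripts begin upstream of them. The whole Tyro3 window lies within its annotated gene.

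Gas6 had the clearest difference in the family. The gene lies on chromosome 8 (13465374 to 13494535, GRCm38.p6). At its main probe set, 1417399_at, the 4 chow arrays read 12.59, 12.89, 12.64 and 12.80 in log2 units. After 5 days of high-fat diet (HFD) the arrays read 12.15, 11.83, 12.15 and 11.83. After 14 days they read 11.97, 12.17, 11.67 and 11.39. All 8 high-fat arrays therefore lay below all 4 chow arrays, while the 5-day and 14-day arrays overlapped. The means were 12.73 ± 0.14 in chow, 11.99 ± 0.19 at 5 days and 11.80 ± 0.34 at 14 days (SD, n = 4), which on the linear scale put Gas6 signal at 59.8% and 52.5% of chow.

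The Gas6 difference from chow was −0.74 ± 0.16 (SE, 95% interval −1.08 to −0.40) at 5 days and −0.93 ± 0.16 (−1.27 to −0.59) at 14 days in a limma fit to 13311 genes. Neither passed after Benjamini-Hochberg adjustment over all of them, with limma adjusted p = 0.304 and 0.377. At 14 days only 2 other genes had a smaller unadjusted p, so Gas6 ranked 3 of 13311, and at 5 days it ranked 23; these ranks describe a gene that was put forward with the results known. From 5 to 14 days the difference was −0.19 ± 0.16 (−0.53 to 0.15, limma adjusted p = 0.999), within the spread of the arrays. Without 14-day array 4, the lowest of the 12, the 14-day difference from chow was −0.79. The 5-day difference passed without that array (limma adjusted p = 0.0348), although the chow and 5-day values then stay as they were and the fit's estimate of the spread differs.

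The second Gas6 probe set, 1459585_at, gave a fainter and flatter picture. The platform annotation ties the main probe set to a RefSeq messenger RNA and this one to an expressed sequence tag, and where in the gene either sits was not analysed here. Its chow arrays read 8.40, 8.14, 8.35 and 8.36. The 5-day arrays read 7.92, 8.30, 8.08 and 8.19, and the 14-day arrays 8.20, 8.30, 8.24 and 8.03. The groups overlapped in every comparison, and chow array 2, the highest chow array at the main probe set, was the lowest chow array here. Differences from chow were −0.19 ± 0.09 at 5 days and −0.12 ± 0.09 at 14 days (SE, n = 4), both in the direction of the main probe set but smaller, with limma adjusted p = 0.536 and 0.793 over 22956 probe sets. Its mean signal of 8.21 was at percentile 51.8 of all probe sets, against percentile 96.0 for the main one at 12.17. When the signals of both probe sets were averaged, the Gas6 difference was −0.47 at 5 days and −0.53 at 14 days.

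**Figure D1:**
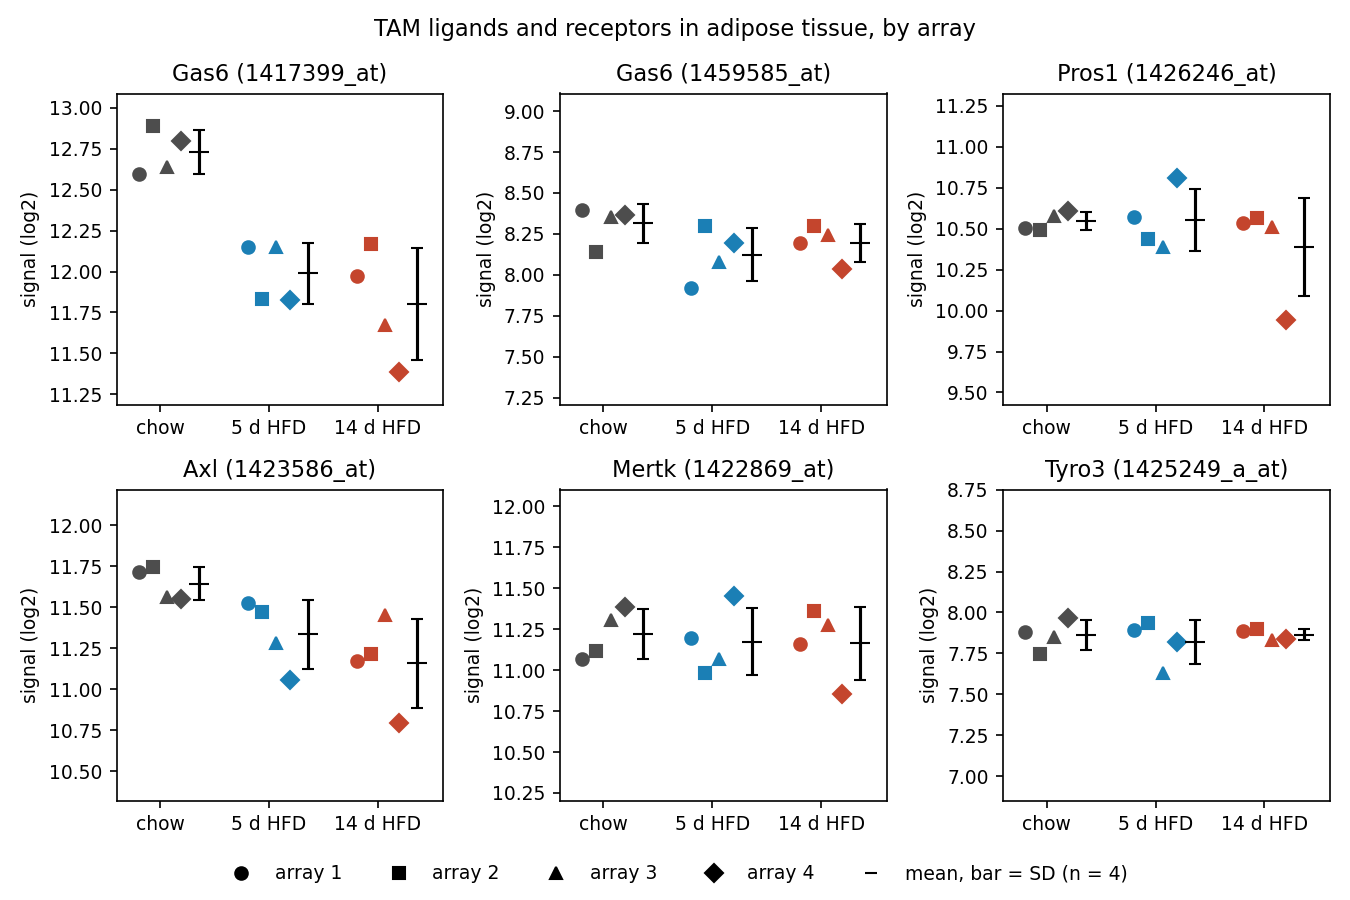
Log2 signal of each array (symbols, array 1 to 4) for the main probe sets of the 5 genes and the second Gas6 probe set, in chow, 5-day and 14-day high-fat diet (HFD) groups, with mean and SD beside each group (n = 4); all panels span the same number of log2 units. At Gas6 1417399_at every high-fat array (11.39 to 12.17) lies below every chow array (12.59 to 12.89), and Axl shows the same order over a smaller range, while the other panels overlap.

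Pros1, the other ligand and also a plasma anticoagulant made largely by liver and endothelium, did not share this order. It lies on chromosome 16 (62854307 to 62929346) and has 1 probe set, 1426246_at. Chow arrays read 10.51, 10.49, 10.58 and 10.61, 5-day arrays 10.57, 10.44, 10.39 and 10.81, and 14-day arrays 10.54, 10.57, 10.51 and 9.94. One array, the 14-day array 4, stood well below the other 11, which spanned 10.39 to 10.81. The difference from chow was 0.0058 ± 0.14 at 5 days (95% interval −0.30 to 0.31) and −0.16 ± 0.14 at 14 days (−0.46 to 0.14), with limma adjusted p = 0.992 and 0.808, and from 5 to 14 days −0.16 ± 0.14 (adjusted p = 0.999). Without 14-day array 4 the 14-day difference from chow was −0.0091. Liver markers ran from 7.95 in chow array 2 to 13.20 in 5-day array 4. Pros1 was 10.81 in that array, its highest value, and 10.54 in 14-day array 1, where the liver mean was 12.75; the part of liver transcripts in the Pros1 signal was not tested.

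Axl, the receptor with the highest affinity for Gas6, was the other gene whose high-fat arrays all lay below chow. Its gene is on chromosome 7 (25756500 to 25788924). At the main probe set, 1423586_at, chow arrays read 11.72, 11.75, 11.57 and 11.55. The 5-day arrays read 11.53, 11.47, 11.28 and 11.06, and the 14-day arrays 11.17, 11.22, 11.45 and 10.79. The highest 5-day array was 11.53 and the lowest chow array 11.55, so the groups were barely apart, and the 14-day arrays overlapped the 5-day ones. Group means were 11.64 ± 0.10, 11.33 ± 0.21 and 11.16 ± 0.27 (SD, n = 4), or 80.7% of chow signal at 5 days and 71.4% at 14 days.

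Axl differed from chow by −0.31 ± 0.14 at 5 days (95% interval −0.61 to −0.0079) and −0.49 ± 0.14 at 14 days (−0.79 to −0.19), with limma adjusted p = 0.489 for both. From 5 to 14 days it differed by −0.18 ± 0.14 (−0.48 to 0.13, adjusted p = 0.999). The 14-day difference was −0.36 without 14-day array 4 and the 5-day difference −0.22 without 5-day array 4. The second Axl probe set, 1438621_x_at, whose suffix marks probes that can cross-hybridise, read 5.10 to 5.38 in all arrays, at percentile 5.63 of probe sets, and was too dim to be tested.

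Mertk, the engulfment receptor of resident macrophages, had overlapping signal in all groups. It lies on chromosome 2 (128698915 to 128803162). Its probe set 1422869_at read 11.07, 11.12, 11.30 and 11.39 in chow, 11.20, 10.98, 11.07 and 11.45 at 5 days, and 11.16, 11.36, 11.27 and 10.86 at 14 days. Again 14-day array 4 was the lowest array and all groups overlapped. Differences from chow were −0.045 ± 0.13 at 5 days (95% interval −0.33 to 0.24) and −0.056 ± 0.13 at 14 days (−0.34 to 0.23), with limma adjusted p = 0.932 and 0.927. The 14-day difference turned to 0.047 without 14-day array 4, and the sign of all Mertk differences from chow also turned with an epididymis and testis covariate (0.19 at 5 days and 0.031 at 14 days).

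Tyro3, the receptor best known from the nervous system, was near the lower limit of the genes tested. Its gene lies on chromosome 2 (119797740 to 119818104). The main probe set, 1425249_a_at, ranged from 7.75 to 7.97 in chow, 7.63 to 7.94 at 5 days and 7.83 to 7.90 at 14 days. Its mean over all arrays, 7.85, was just over the 7.64 needed to be tested. The differences from chow were −0.040 ± 0.07 (95% interval −0.20 to 0.12) and 0.0033 ± 0.07 (−0.16 to 0.16), with limma adjusted p = 0.885 and 0.992. The other Tyro3 probe set, 1425248_a_at, read 5.77 to 6.37 in all arrays and was not tested.

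**Figure D2:**
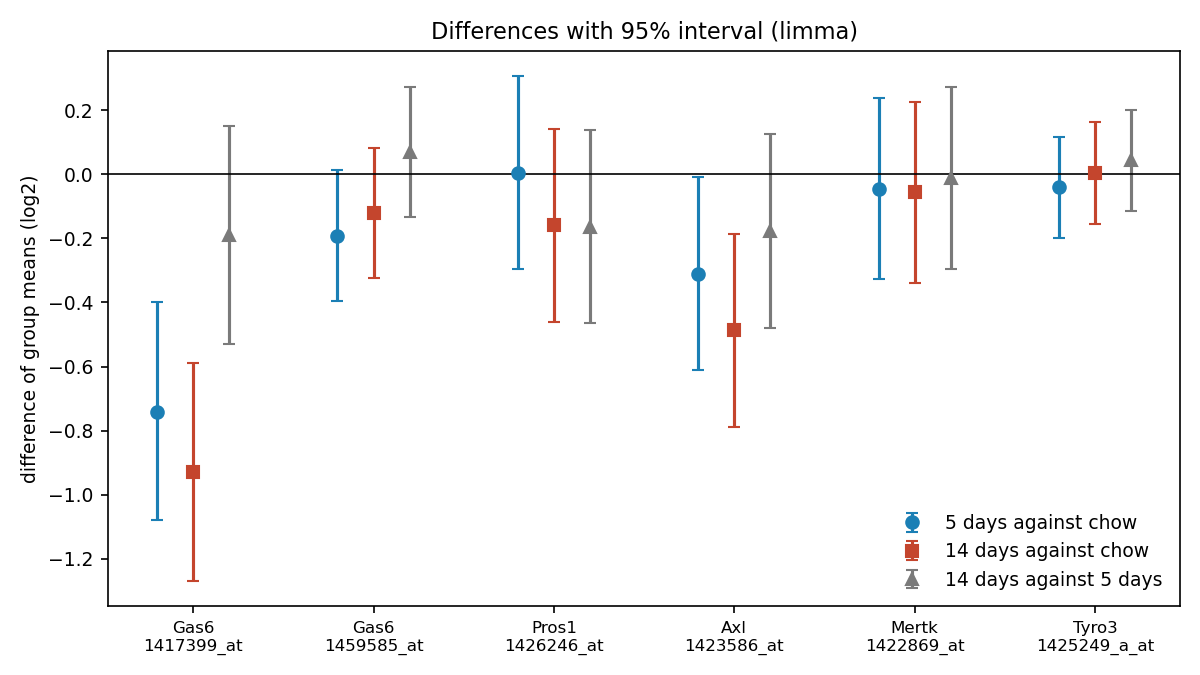
Differences of group means in log2 units with 95% intervals from limma, comparing each high-fat group with chow and the high-fat groups with each other, at the main probe set of each gene and the second Gas6 probe set. The intervals of Gas6 1417399_at (−1.08 to −0.40 and −1.27 to −0.59) and Axl (−0.61 to −0.0079 and −0.79 to −0.19) against chow lie below 0 before adjustment, and the other intervals include 0.

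Counted over the family, 0 of the 5 genes passed at adjusted p under 0.05 at 5 days, 14 days or between both times, where limma called 0% of the 13311 genes in each comparison. At an unadjusted p under 0.05 there were 1345, 1061 and 340 genes, and under the same limit Gas6 and Axl were lower at both times against chow. The groups did not overlap, with high-fat lower, for 2 of 5 members at 5 days, against 4.77% of all genes, and for 2 of 5 at 14 days, against 2.26% of all genes. The same 2, Gas6 and Axl, were lower in both comparisons, which share the chow arrays, as were 1.01% of all genes. Between 14 and 5 days 0 of 5 members were lower without overlap, against 0.278% of genes. The median difference of the 5 members was −0.045 at 5 days and −0.16 at 14 days, where that of all genes tested was −0.0015 and 0.016. Whether the Gas6 or Axl difference exceeded that of Mertk, Tyro3 or Pros1 was not tested.

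The remaining genes of the TAM pathway gave 0 passing genes in every list and comparison in the limma fit of all arrays with equal weights and no covariate. Counts of lower and higher genes in the lists stand beside a share of 50.4% of all genes lower than chow at 5 days and 44.8% at 14 days. Whether any list departed from that share was not tested. With array weights 18 of the 29 named below passed, but these 29 were picked for the smallest p of each list. That fit called 2015, 2979 and 2212 of all 13311 genes in the 3 comparisons, so the 18 are no measure of the pathway. Without 14-day array 4 Cd14 passed at 14 days (limma adjusted p = 0.0321) and C4bp at 5 days (limma adjusted p = 0.0348, among 123 genes called). Cd14 also passed at 14 days without 14-day array 2 (limma adjusted p = 0.0225, among 20 genes called). A further list of 4 genes held other reported TAM ligands and Mfge8, which bridges to integrins and not to TAM receptors. Of these 4, 2 were bright enough to test and both had higher means than chow. Lgals3, galectin-3, differed by 0.35 ± 0.17 at 5 days, with means of 12.54 ± 0.12 against 12.19 ± 0.09 (SD, n = 4) and no overlap. Mfge8, a phosphatidylserine bridge to integrins, differed by 0.18 ± 0.11, or 0.10 without 5-day array 4. The limma adjusted p-values were 0.523 and 0.594. With the epididymis and testis mean as a covariate Mfge8 differed by 0.38 and passed (limma adjusted p = 0.024), in a fit that called 728 of 13311 genes at 5 days.

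The vitamin K cycle and processing genes, needed to make the Gla domain, had higher means in 6 of 6 members at 5 days (median 0.12) and at 14 days (median 0.10). Their array means were 10.32 ± 0.01 in chow, 10.54 ± 0.05 at 5 days and 10.47 ± 0.15 at 14 days (SD, n = 4). Vkorc1l1, a vitamin K epoxide reductase, differed by 0.16 ± 0.07 and Furin, a protease that trims precursor proteins, by 0.14 ± 0.09 at 14 days, the latter by 0.062 without 14-day array 4 and 0.089 without chow array 1. Nqo1, a quinone reductase, differed by 0.74 ± 0.41 at 5 days, but read 9.28 to 9.60 in 5-day arrays 1 to 3 and 10.38 in 14-day array 4, the arrays with epididymis transcripts, and 8.35 to 8.51 in the others. Its difference from chow was the largest of the 6 at both times (0.47 at 14 days), and the next largest was 0.16 each time. The array means of this list therefore rest in good part on Nqo1. Of 9 other Gla protein genes tested, 7 were higher and 2 lower at each time against chow. The 7 include the clotting factor genes F2, F7, F10 and Proc, which liver makes, and the mean of all 9 was highest, at 9.71 or more, in chow array 3, 5-day arrays 2 and 4 and 14-day array 1, whose liver marker means were 11.43 to 13.20. It was 9.21 to 9.49 in the other arrays, of which 14-day array 3 had a liver mean of 11.50 and the rest 7.95 to 10.02. The part of liver transcripts was not tested. The membrane Gla proteins Prrg3 and Prrg1 differed by 0.56 ± 0.14 and 0.83 ± 0.44 at 5 days, and Mgp, matrix Gla protein, by −0.85 ± 0.29 at 14 days (12.10 ± 0.41 against 12.95 ± 0.38). Prrg1 also followed the epididymis transcripts, at 10.41 to 11.64 in those 4 arrays and 9.42 to 9.70 in the others.

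Among 7 partners of protein S in plasma and on endothelium, 4 were lower and 3 higher at each time against chow (medians −0.0060 and −0.072). C4bp, a complement regulator whose human form carries protein S in plasma, differed by 3.72 ± 1.14 at 5 days (limma adjusted p = 0.354). It read 10.78 to 11.04 in 5-day arrays 1 to 3 and 12.92 in 14-day array 4, the arrays with epididymis transcripts, and 6.21 to 9.40 in the others. With the epididymis and testis mean as a covariate the 5-day C4bp difference was 1.56. Of the others, 5-day array 4 (9.40) and 14-day array 1 (9.13) had the highest liver means, 13.20 and 12.75. The part of epididymis or liver transcripts in the C4bp signal was not tested. The protein C receptor Procr and thrombomodulin (Thbd) differed by −0.39 ± 0.18 and −0.39 ± 0.19 at 14 days, and by −0.19 and −0.14 without 14-day array 4. In 14-day array 4 Thbd stood at 11.28, against 12.26 to 12.34 in the other 14-day arrays.

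Genes of receptor shedding were lower than chow in 3 of 5 members at each time (medians −0.087 and −0.065). Adam17, a protease that cuts Mertk and Axl from the cell surface, differed by −0.15 ± 0.05 at 14 days without overlap (9.88 ± 0.07 against 10.03 ± 0.02), Timp3, an inhibitor of that protease, by −0.24 ± 0.13 at 14 days, and Rhbdf2, which brings it to the surface, by −0.10 ± 0.07 at 5 days. Transcriptional regulators linked to TAM genes were lower in 5 of 9 members at 5 days (median −0.13) and 7 of 9 at 14 days (median −0.18). Maf, a transcription factor of macrophages and stromal cells, read 12.22 to 12.45 in chow and 11.02 to 12.10 at 14 days, a difference of −0.61 ± 0.19 (limma adjusted p = 0.552), or −0.38 without 14-day array 4. Fos, an AP-1 subunit, differed by −0.71 ± 0.27 from 5 to 14 days and Ppard, a nuclear receptor for fatty acids, by 0.12 ± 0.06 at 5 days (0.075 without 5-day array 4).

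Downstream signalling genes were split, with 7 lower and 9 higher of 16 at 5 days (median 0.011) and 11 lower and 5 higher at 14 days (median −0.031). Twist2, a repressor of inflammatory cytokines, differed by −0.30 ± 0.12 and the adaptor Grb2 by 0.11 ± 0.05 at 5 days, and the kinase Jak1 by −0.10 ± 0.05 from 5 to 14 days (−0.060 without 14-day array 2). The engulfment machinery was lower in 7 of 10 members at 5 days and 5 of 10 at 14 days (medians −0.027 and −0.0070). At 5 days its adaptor Gulp1 differed by −0.36 ± 0.25 and the Rac activators Vav1 and Vav3 by −0.11 ± 0.09 and 0.29 ± 0.27. Without chow array 1 Gulp1 and Vav1 differed by −0.24 and −0.056, without 5-day array 4 Vav1 by −0.066, and without 5-day array 3 Vav3 by 0.11. Phosphatidylserine exposure genes were lower in 6 of 7 at both times (medians −0.034 and −0.036). Plscr1, an interferon-inducible phospholipid scramblase family member, differed by −0.70 ± 0.24 and the scramblase Ano6 by −0.12 ± 0.12 at 5 days, and the scramblase Xkr8 by 0.080 ± 0.07 at 14 days. Ano6 ran from −0.22 without 5-day array 4 to −0.058 without 5-day array 2 (−0.079 without chow array 4), and Xkr8 was at 0.049 without 14-day array 1 or chow array 3.

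Other receptors for dead cells were lower in 7 of 12 tested members at both times, with medians of −0.014 and −0.0083. Cd14, a lipopolysaccharide co-receptor that also tethers dying cells, had the smallest unadjusted p of all genes at 14 days. It read 10.75 to 11.01 in chow, 10.32 to 10.39 at 5 days and 9.63 to 10.37 at 14 days, a difference of −0.86 ± 0.13 from chow (limma adjusted p = 0.362). The scavenger receptor Lrp1 differed by −0.28 ± 0.13 at 14 days (−0.14 without 14-day array 4) and the integrin subunit Itgb3 by 0.26 ± 0.07 from 5 to 14 days (adjusted p = 0.63 and 0.999). Over the 10 lists of pathway genes the medians ran from −0.18 to 0.26 in the comparisons with chow.

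Macrophage, preadipocyte and fibroblast, and mesothelium markers had mostly lower means than chow in both high-fat groups, and endothelial markers at 14 days. Of all genes tested, 50.4% were lower than chow at 5 days and 44.8% at 14 days. In bulk tissue fewer cells of a type and less RNA per cell cannot be told apart. Macrophage markers were lower than chow in 12 of 14 tested members at 5 days (median −0.13) and 14 of 14 at 14 days (median −0.56), with a mean level of 11.02 to 11.24 in chow, 10.76 to 11.09 at 5 days and 9.76 to 10.97 at 14 days. The 9.76 was 14-day array 4, and the other 14-day arrays stood at 10.59 to 10.97, so the 14-day median rests in part on that array. Preadipocyte and fibroblast markers were lower in 8 of 10 (median −0.18) and 9 of 10 (median −0.43), at 11.98 to 12.15, 11.77 to 12.12 and 11.27 to 11.87. Mesothelium markers, of the lining of visceral fat, were lower in 9 of 10 (median −0.60) and 8 of 10 (median −0.58), at 10.60 to 10.88, 9.85 to 10.47 and 9.87 to 10.64. Endothelial markers were lower in 4 of 10 and 10 of 10 (medians 0.075 and −0.20). Dendritic cell markers were lower in 4 of 6 and 6 of 6 (medians −0.12 and −0.30), neutrophil markers in 1 of 4 and 4 of 4, T and NK cell markers in 5 of 5 at both times and B cell markers in 1 of 2. Smooth muscle means ran from 9.73 to 10.16 in chow, 9.78 to 11.51 at 5 days and 9.54 to 12.98 at 14 days, and liver means from 7.95 to 11.95, 9.13 to 13.20 and 8.85 to 12.75. Skeletal muscle markers were high in single arrays, with means of 12.98 (chow array 3) and 12.70 (5-day array 2) against 8.20 to 9.45 in the other arrays, so their group means rest on these arrays. Adipocyte markers were lower in 5 of 10 and 6 of 10. No marker gene of these lists passed in limma, and none was listed at 0.

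With the macrophage marker mean as a covariate, chosen after seeing the data, Gas6 differed from chow by −0.68 at 5 days and −0.70 at 14 days, and Axl by −0.22 and −0.18. With the preadipocyte and fibroblast mean Gas6 differed by −0.63 and −0.60, and Axl by −0.21 and −0.18. With the mesothelium mean Gas6 differed by −0.37 and −0.61, and Axl by 0.041 and −0.19. The 5-day Gas6 value with the mesothelium mean had a limma adjusted p of 0.85, and none of the values of these 3 fits passed (lowest adjusted p = 0.231). Whether cell make-up accounts for the Gas6 and Axl differences was not tested.

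**Figure D3:**
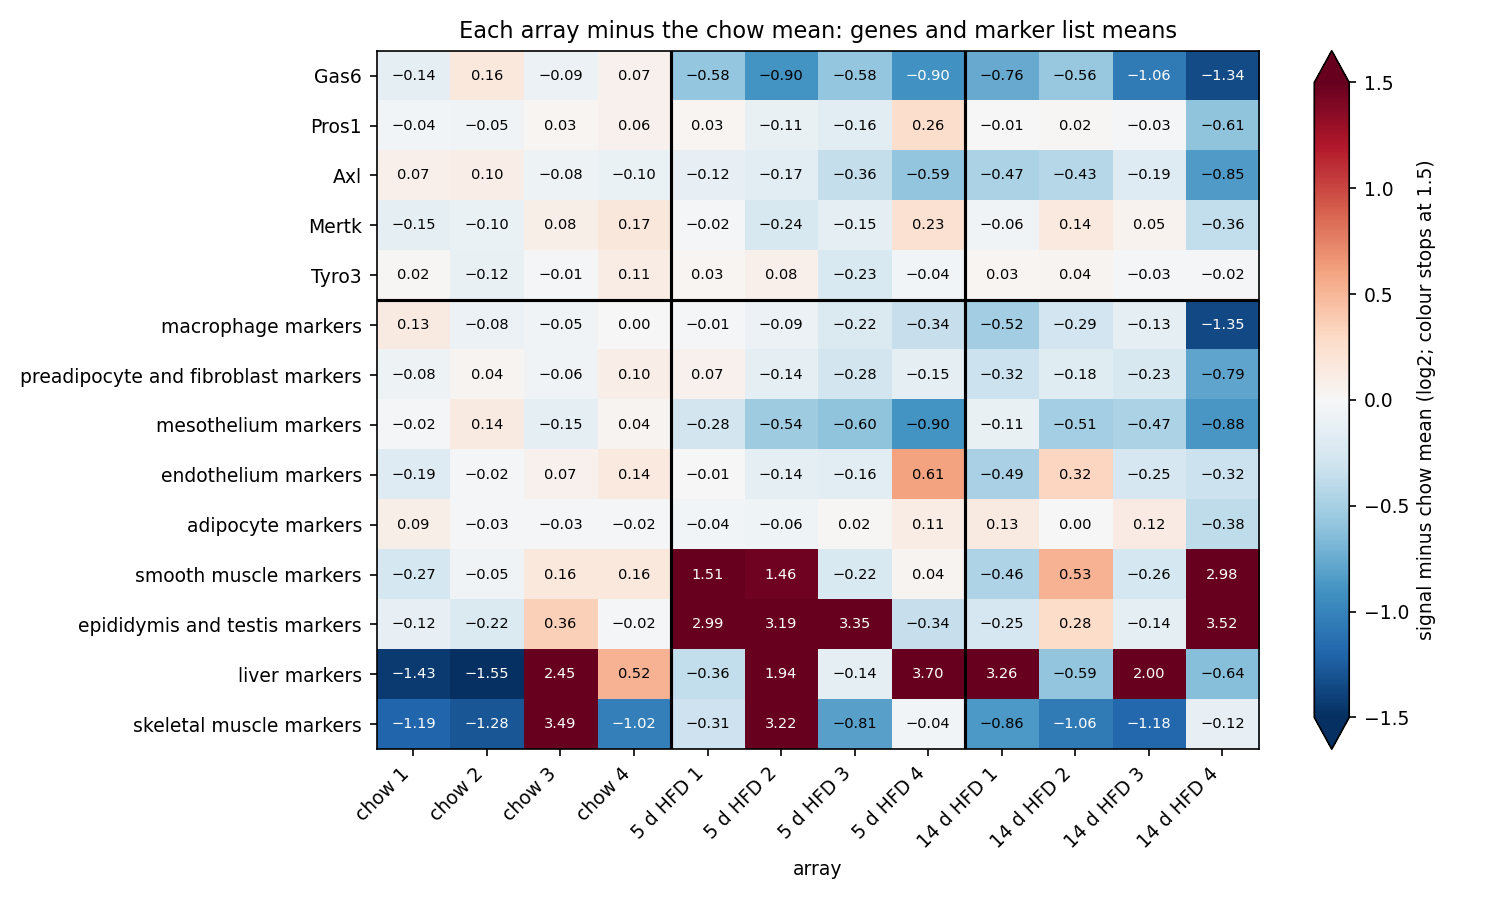
Log2 signal of each array minus the chow mean (colour and printed value; colour stops at 1.5 in both directions) for the 5 genes and, under the line, the mean of each marker list, with arrays in columns. Gas6 is negative in all 8 high-fat arrays, between −1.34 and −0.56; epididymis and testis markers are at 2.99 to 3.52 in 4 of them and at −0.34 to 0.28 in the other 4.

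The arrays with and without epididymis transcripts both had low Gas6. In 5-day array 4 and 14-day arrays 1 to 3, whose epididymis and testis mean lay between 7.86 and 8.48, Gas6 was below the chow mean by values from −0.56 to −1.06. In the 4 arrays with such transcripts it ran from −0.58 to −1.34, so the ranges overlapped. Axl stood at −0.19 to −0.59 in the former arrays and −0.12 to −0.85 in the latter. With the epididymis and testis mean as a covariate Gas6 differed from chow by −0.64 at 5 days and −0.89 at 14 days, and Axl by −0.26 and −0.47 (limma adjusted p = 0.0764, 0.181, 0.397 and 0.25). This fit called 728 genes at 5 days and 0 at 14 days, with 0 of the 5 members among them. The 14-day array 4 was the lowest of all 12 arrays for 4 of the 5 genes, Tyro3 being the exception. It also had the lowest macrophage mean (9.76), preadipocyte and fibroblast mean (11.27) and adipocyte mean (13.62) and the highest smooth muscle mean (12.98, against 9.54 to 11.51 elsewhere); their part in its low Gas6, Axl, Pros1 and Mertk signals was not tested.

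**Figure D4:**
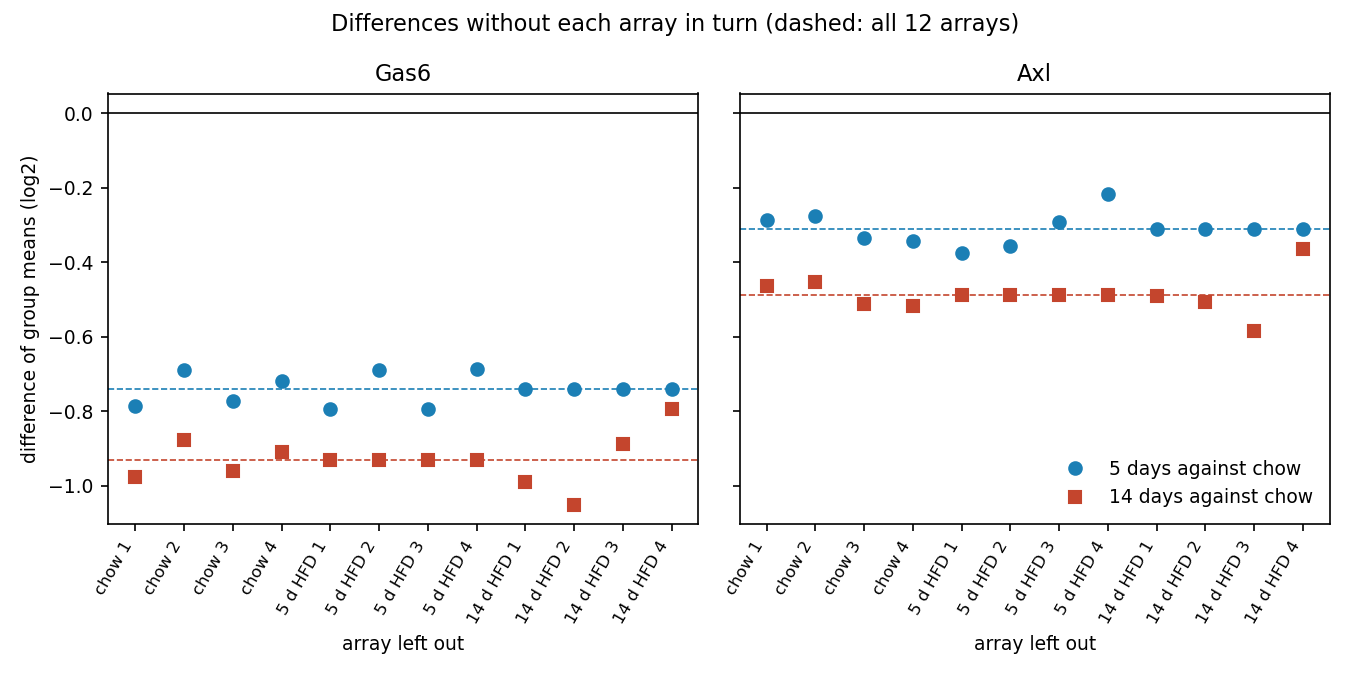
Gas6 (left) and Axl (right) difference from chow in log2 units at 5 days (circles) and 14 days (squares) when the array named on the horizontal axis is left out; dashed lines give the value with all 12 arrays. The Gas6 values run from −0.80 to −0.69 at 5 days and −1.05 to −0.79 at 14 days, those of Axl from −0.37 to −0.22 and −0.59 to −0.36, and all stay below 0.

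The genes whose pattern over the 12 arrays was most like that of each member differed between members. Likeness is Pearson's r of log2 signal over arrays, which share group and tissue make-up, and is given as a description. Nearest to Gas6 were Gpc3 (r = 0.978), Frmd6 (0.969) and Cxcl16 (0.961), with 0.954, 0.905 and 0.830 after group means were subtracted. Nearest to Axl were Rcn3 (0.963), Arhgdib (0.961) and Fcna (0.951). Mertk was closest to Tgm2 (0.968), Nlrc5 (0.947) and Wdr3 (0.936), Pros1 to Irak3 (0.961), Fes (0.957) and Itpripl2 (0.956), and the dim Tyro3 to Epor (0.848), Bmp10 (0.846) and Hdhd5 (0.837). By Pearson's r no TAM family member was among the 3 nearest genes of another, and nearest genes by rank were not looked for. Spearman rank correlations were lower for the genes nearest to Pros1 (0.755, 0.867 and 0.797) and to Tyro3 (0.699, 0.820 and 0.559), in the order named. Within the family, r was 0.847 between Pros1 and Mertk (0.891 after group means were subtracted), with a Spearman rank correlation of 0.928. Both genes were lowest in 14-day array 4 and highest in 5-day array 4. Between Gas6 and Axl r was 0.781 (0.423 after group means were subtracted), while Mertk had 0.308 with Gas6 and 0.138 with Axl.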

How the data were processed

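The authors deposited 1 table of 45098 probe sets by 12 arrays. Its unit is log2, judged from values between 4.18 and 15.5, as deposited by the authors; how they summarised probes and normalized arrays is not given in the sources used here. Nothing was renormalized. Probe sets were named by the platform annotation: 34945 had 1 gene symbol, 932 several and 9160 none, and 61 were controls. All 5 members matched RefSeq by Entrez ID.

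Each gene took its probe set of highest mean, and those with a mean of 7.64 or more, the 40th percentile over probe sets, were tested (13311). A single limma model (version 3.58.1, R 4.3.3) held all 3 groups (eBayes with trend, two-sided), with Benjamini-Hochberg adjustment over all 13311 genes and a threshold of 0.05. Of the 8 member probe sets, 6 passed the filter; the second Gas6 probe set was tested in a fit over 22956 probe sets. The fit was tested on simulated data in which the deviations from group means were shuffled across arrays for each gene separately. Such data lack the differences in tissue make-up that genes share within an array, so that test does not cover them. Members and the 10 pathway and 13 marker lists were chosen with earlier results of these data known. Named pathway genes are up to 3 of smallest p per list, each at that comparison; nearest genes are the 3 of highest r. Alternatives covered normalization, filter, probe sets, variance model, array weights, samples fitted, pairing, threshold, covariates and single arrays. Arrays were not treated as paired by replicate number. After group means were subtracted, 2 of 12 same-numbered pairs correlated above 0.1. This cannot exclude a batch shared by number, since differences in tissue make-up also enter the correlation.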

Additional observations from a re-analysis of the deposited data

Results flagged for a closer look

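In each group of 4 arrays, 1 array standing far from the other 3 was looked for, which chance alone gives in about 5% of groups. Among the 8 member probe sets this occurred in 2 of 24 groups. Pros1 stood at 9.94 in 14-day array 4, against 10.51 to 10.57 in the other 14-day arrays. The second Gas6 probe set stood at 8.14 in chow array 2, against 8.35 to 8.40 in the other chow arrays.

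Among the named pathway genes it occurred in 8 of 87 groups. In 14-day array 4, Prrg1 stood at 11.64 (others 9.53 to 9.70), Nqo1 at 10.38 (others 8.35 to 8.48) and Thbd at 11.28 (others 12.26 to 12.34). In 5-day array 4, C4bp stood at 9.40 (others 10.78 to 11.04) and Rhbdf2 at 9.91 (others 9.84). In chow array 1, Itgb3 stood at 8.61 (others 8.43 to 8.45) and Plscr1 at 8.13 (others 8.88 to 9.01), and in chow array 3 C4bp stood at 8.33 (others 6.21 to 6.48).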

How the results depend on the processing

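Gas6 and Axl at their main probe sets kept a lower signal than chow at both times under all alternatives, except Axl at 5 days with the mesothelium marker mean (0.041). None of the 5 genes was called in a fit of all 12 arrays with equal weights. Array weights called 1 gene at 5 days (Gas6) and 2 at 14 days (Gas6 and Axl, limma adjusted p = 0.00587 and 0.0131), among 2015 and 2979 genes called in all; at 5 days 1 gene, Gas6, was called when only these groups were fitted (among 213) and without both high-fat arrays numbered 4 (among 881). As single arrays were left out, 0 to 1 genes were called at 5 days (1 without 14-day array 4, among 123) and 0 to 1 at 14 days (1 without 14-day array 2, among 20). These calls were Gas6. Of the 29 named pathway genes, picked for the smallest p of each list, array weights called 18 and leaving out both arrays numbered 4 called 4. Fitting only the groups compared called 2, and the epididymis covariate 1 (among 728 genes called at 5 days). Leaving out 14-day array 4 called 2 of them, and leaving out 14-day array 2 called 1. The replicate number as a block gave 0 calls in each comparison (Gas6 −0.74 and −0.93, limma adjusted p = 0.378 and 0.516).

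Signs turned mostly at small differences, and the cause was not tested. Pros1 at 5 days was −0.014 under quantile normalization, −0.033 with array weights, −0.080 without both arrays numbered 4, and −0.080 to 0.061 without single arrays. From 5 to 14 days array weights gave 0.00023 for Pros1 and 0.053 for Mertk, and leaving out both arrays 0.071 and 0.18; Mertk at 14 days was then 0.047. Furin was −0.0022 with array weights. The epididymis covariate gave 0.19 for Mertk at 5 days and 0.031 at 14 days, and at 5 days 0.096 for Gulp1, −0.13 for Vav3, −0.18 for Prrg1, 0.083 for Ano6 and −0.21 for Nqo1. From 5 to 14 days the macrophage covariate gave 0.044 for Axl, and the preadipocyte and fibroblast covariate 0.035 for Gas6 and 0.027 for Axl. Without single arrays Mertk ran from −0.14 to 0.019, −0.12 to 0.047 and −0.078 to 0.092 at 5 days, 14 days and between them, and Tyro3 from −0.079 to 0.023, −0.036 to 0.039 and −0.020 to 0.082.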
